A study of Mus musculus with 10 samples.

Results

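The 6 actin isoforms of the mouse were followed in the left ventricle (LV) after neonatal ascending aortic constriction (nAAC) and after sham surgery. The members were the rows of the gene tables named Acta1, Actc1, Acta2, Actg2, Actb and Actg1, which are 6 of 55401 genes and were all among the 11867 genes tested. In nAAC the ascending aorta is narrowed by an operation on newborn mice, so that the young LV works against a raised pressure, and sham mice had surgery without the constriction. Both groups were wild-type (WT) mice with no transgene or drug, of unlabelled sex, sampled at 4 weeks of age, and each group held 5 libraries of total RNA from LV tissue, 1 per mouse. The labels number the samples of each group from 1 to 5, and these numbers name the replicates here.

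Actin is the protein of the thin filament in muscle and of the cytoskeleton in every cell. Acta1 encodes the skeletal and Actc1 the cardiac muscle alpha-actin, and both are built into the thin filaments of the heart's sarcomeres. Acta2 and Actg2 encode the actins of vascular and of visceral smooth muscle, and Acta2 also marks myofibroblasts. Actb and Actg1 encode the cytoplasmic actins that nonmuscle and muscle cells share. In the rodent heart the skeletal isoform is known as a gene of the fetal program that is used before and around birth and again under load. Serum response factor (SRF) binds a DNA element called the CArG box in the promoters of many actin genes. The pool of free actin monomers controls the SRF cofactors encoded by Mrtfa and Mrtfb, which belong to the myocardin family.

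The start of each coding sequence is shown because the 6 proteins differ most at their amino end, while their messages are similar enough to raise the question of whether reads can be told apart. The first 60 coding bases were taken from GENCODE M21 transcripts of GRCm38 and are given 5′ to 3′. Capitals mark bases that differ from Acta1 after the coding sequences were aligned residue by residue.
Acta1: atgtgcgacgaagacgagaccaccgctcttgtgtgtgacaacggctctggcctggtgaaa
Actc1: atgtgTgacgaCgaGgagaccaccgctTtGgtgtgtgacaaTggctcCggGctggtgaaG
Acta2: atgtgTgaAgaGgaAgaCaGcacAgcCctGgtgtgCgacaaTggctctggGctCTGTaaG
Actg2: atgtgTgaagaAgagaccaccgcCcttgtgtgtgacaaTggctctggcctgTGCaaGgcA
Actb: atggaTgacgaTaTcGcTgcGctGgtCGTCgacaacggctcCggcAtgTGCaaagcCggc
Actg1: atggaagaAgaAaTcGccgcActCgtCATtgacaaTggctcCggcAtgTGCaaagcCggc

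The alpha-actins of Acta1 and Actc1 differed at 4 of 377 aligned residues and shared 86.3% of aligned coding bases. Acta2 and Actg2 differed at 2 of 376 residues, and Actb and Actg1 at 4 of 375. The muscle and the cytoplasmic proteins were further apart, with 24 differing residues between Acta1 and Actb. Despite the likeness of the proteins, no stretch of 100 bases in the main transcript of Acta1, Actc1, Acta2 or Actg2 recurred exactly in a transcript of any other gene of the annotation. Actb shared 20 of 1821 such stretches with other genes. Actg1 shared 946 of 1853, or 51.1%, and every one of these lay in a processed pseudogene and not in another actin. How the authors' counting divides such reads is not given in the sources used here, and the length of the reads is not given either.

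The promoters are shown because Acta1, Actc1, Acta2 and Actg1 were all higher in nAAC and because the factor that binds the CArG box was measured in the same libraries. The RefSeq promoter table for GRCm38.p6 matched 4 of the 6 genes, without Actb and Actg2. The 250 bases before the RefSeq start are given 5′ to 3′ on the minus strand, and capitals mark CArG boxes and boxes with 1 departure within the A/T core.
Acta1 (chr8:123894776-123895025): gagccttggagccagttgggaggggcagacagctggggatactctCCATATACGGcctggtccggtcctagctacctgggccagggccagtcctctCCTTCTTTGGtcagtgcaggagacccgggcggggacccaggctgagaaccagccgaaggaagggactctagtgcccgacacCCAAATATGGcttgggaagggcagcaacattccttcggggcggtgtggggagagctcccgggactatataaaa
Actc1 (chr2:114052876-114053125): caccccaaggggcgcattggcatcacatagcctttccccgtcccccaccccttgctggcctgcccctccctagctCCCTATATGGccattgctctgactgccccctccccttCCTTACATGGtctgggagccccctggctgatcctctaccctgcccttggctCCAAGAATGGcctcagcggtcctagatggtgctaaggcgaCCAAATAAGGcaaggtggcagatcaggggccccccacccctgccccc
Acta2 (chr19:34255374-34255623): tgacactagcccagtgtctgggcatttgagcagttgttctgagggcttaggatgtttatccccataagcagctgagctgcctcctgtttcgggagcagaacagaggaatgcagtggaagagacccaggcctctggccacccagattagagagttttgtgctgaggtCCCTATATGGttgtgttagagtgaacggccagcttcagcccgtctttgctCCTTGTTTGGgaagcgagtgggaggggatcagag
Actg1 (chr11:120348496-120348745): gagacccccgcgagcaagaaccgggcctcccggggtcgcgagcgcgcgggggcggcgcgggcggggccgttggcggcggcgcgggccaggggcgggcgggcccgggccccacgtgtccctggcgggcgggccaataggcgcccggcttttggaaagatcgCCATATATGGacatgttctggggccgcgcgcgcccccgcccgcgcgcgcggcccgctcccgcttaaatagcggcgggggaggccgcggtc

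An exact CArG box, which reads as the same pattern on both strands, was found 73 to 64 bases before the RefSeq start of Acta1, 47 to 38 bases before that of Actc1 and 90 to 81 bases before that of Actg1. The RefSeq starts are not the 5′ ends of the gene intervals given below. The window of Actc1 lies within its interval, those of Acta2 and Actg1 lie partly within theirs, and that of Acta1 lies outside. With 1 departure allowed, the window of Acta1 held 3 boxes in all, that of Actc1 held 4, that of Acta2 held 2 and that of Actg1 held 1. Of 32851 promoters of the same length in the table, 482 (1.47%) held an exact box, 2823 (8.59%) held a box with at most 1 departure, and 220 (0.670%) held 2 or more of these. A match describes the letters only.

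The deposited files give FPKM (fragments per kilobase of transcript, scaled to the sequenced total), which is a level per length, and no read counts, so the depth and the counting error of each library are unknown. The mean coverage of Acta1 per unit of its FPKM, which scales with depth, lay between 4.56 and 4.94 in 9 libraries and was 6.40 in nAAC replicate 1. Between 11182 and 12455 genes reached an FPKM of 1. Mitochondrial genes took 32.8 to 39.9% of all FPKM in nAAC and 33.7 to 49.8% in sham, with sham replicate 4 at the low end. Cardiomyocyte markers were abundant in all 10 libraries, with a summed FPKM from 14255 to 30624. Among these markers, sham replicate 4 had the lowest Ttn (7.39 FPKM) and Ryr2 (31.9) of all libraries and the highest Tnnt2 (5959) and Tnni3 (5287). The reason that this library differed was not tested. The atrial light chain gene Myl7 ranged from 0.654 to 79.8 FPKM in nAAC and from 1.16 to 22.3 in sham, and its part in the results below was not tested.

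All 6 actin genes were higher in nAAC than in sham LV, by log2 fold changes (log2 FC) from 0.60 for Actc1 to 6.52 for Acta1. On the log2(FPKM + 1) scale, Acta1 had the largest log2 FC of all 11867 genes tested, ahead of the natriuretic peptide genes. Its place with another value added to FPKM, or under another scaling, was not tested. The test was limma on log2(FPKM + 1) with p values adjusted over all genes, and a gene was called at an adjusted p below 0.05 and termed a DEG (differentially expressed gene) if its log2 FC also exceeded 1. Among all genes tested 31.7% were called and 27.1% were called as higher in nAAC. All 5 actins other than Actg2 were called as higher, which must be read against that share, and Actg2 was called too but reached the filter of a mean FPKM of 1 only through its nAAC libraries. DEGs higher in nAAC made up 5.01% of genes tested, and of the 5 actins other than Actg2 only Acta1 was a DEG. All nAAC libraries lay above all sham libraries for 18.9% of genes tested and for Acta1, Actc1, Actb and Actg1, but not for Acta2. Actg2 met both criteria too, but is left out of these comparisons because of how it reached the filter.

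The median log2 FC of all genes was 0.22, so part of each smaller difference is a shift that the deposited FPKM scale shows for genes in general. The actins exceeded this median by 0.38 (Actc1), 0.56 (Actg1), 0.63 (Acta2), 0.68 (Actb), 1.16 (Actg2) and 6.29 (Acta1). Under median-ratio scaling, which brings the median of all genes to about 0, 1563 genes were called higher and 1431 lower, compared with 3211 and 546 on the FPKM scale. Under that scaling all 6 actins remained higher in nAAC, but Actc1 (log2 FC 0.32, adjusted p = 0.25) and Acta2 (0.58, adjusted p = 0.0957, both limma) no longer passed the test. The tissue is a mixture of cells, and a change in the number of cells of a type cannot be told apart from a change in RNA per cell.

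**Figure D1:**
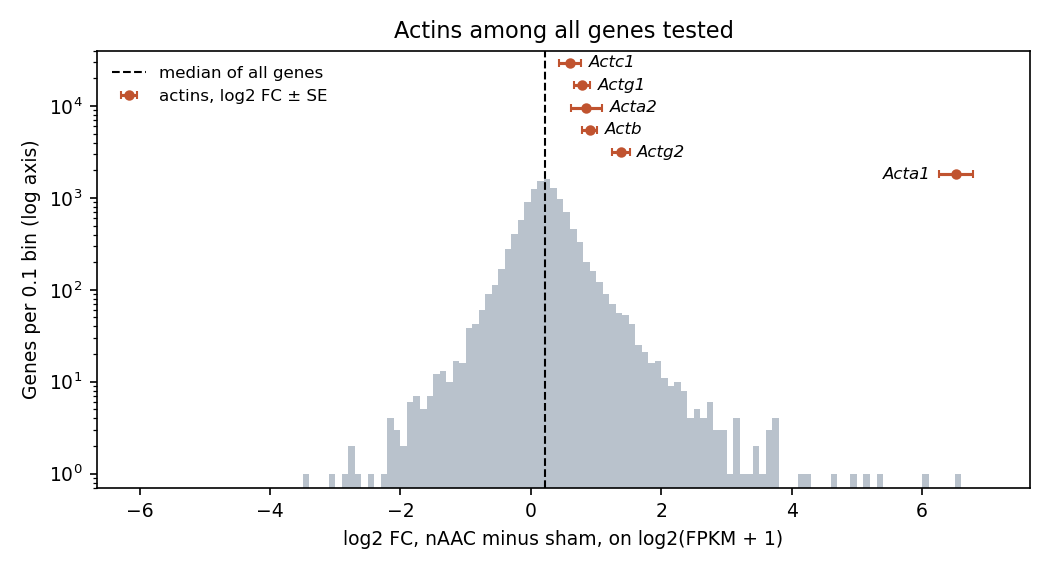
The x axis gives the log2 FC (nAAC minus sham) of 11867 genes, and the y axis counts genes per bin of 0.1 on a log axis. Red points are the 6 actins with their SE at heights that carry no value, the dashed line is the median of all genes at 0.22, and Acta1 lies at the right edge at 6.52 while the other 5 lie between 0.60 and 1.38.

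Acta1, the skeletal alpha-actin gene (ENSMUSG00000031972, chr8:123891769-123894751, minus strand, mm10), was measured at 3584, 3649, 2655, 2909.8 and 3672 FPKM in nAAC replicates 1 to 5. In sham replicates 1 to 5 it was measured at 59.7, 25.6, 34.5, 18.9 and 49.1 FPKM. The lowest nAAC library lay far above the highest sham library, and sham libraries differed among themselves more in proportion than nAAC libraries did, with a coefficient of variation of 44.5% against 14.5%. The means were 3294 ± 477 and 37.6 ± 16.7 FPKM (SD, n = 5 each), a ratio of 87.7. The log2 FC was 6.52 with an SE of 0.27 (adjusted p = 9.74e-09, limma), and the two-sided exact permutation test gave p = 0.0079, the smallest that 5 against 5 values allow. Among genes outside the mitochondrial genome, Acta1 ranked from 9 to 15 by FPKM in nAAC and from 554 to 2219 in sham. Its log2 FC stayed between 6.24 and 6.74 under every alternative tried.

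Actc1, the cardiac alpha-actin gene (ENSMUSG00000068614, chr2:114047282-114053548, minus strand), was the most abundant actin in all 10 libraries. It was measured at 4147, 5673, 5083.5, 4551 and 4475 FPKM in nAAC and at 3493, 3227, 3003, 3527 and 2524 FPKM in sham replicates 1 to 5. The groups did not overlap. The means of 4786 ± 599 and 3155 ± 412 FPKM (SD, n = 5 each) stood in a ratio of 1.52, with a log2 FC of 0.60 (SE 0.17, adjusted p = 0.0146, limma; exact permutation p = 0.0079). This was the smallest log2 FC of the 6 actins, and the call was lost under median-ratio and upper-quartile scaling and when no filter on low values was applied (adjusted p = 0.0978).

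The smooth muscle actin Acta2 (ENSMUSG00000035783, chr19:34241090-34255590, minus strand) was measured at 35.5, 81.7, 77.0, 84.5 and 63.6 FPKM in nAAC and at 50.2, 38.4, 36.8, 27.8 and 29.8 FPKM in sham. Library nAAC replicate 1 fell inside the sham range, and the other nAAC libraries lay above all sham libraries. The means were 68.5 ± 20.1 and 36.6 ± 8.86 FPKM (SD, n = 5 each), with a log2 FC of 0.85 (SE 0.23, adjusted p = 0.0146, limma; exact permutation p = 0.032). Without nAAC replicate 1 the log2 FC was 1.07 (adjusted p = 9.42e-04, limma), and without nAAC replicate 4 it was 0.76 (adjusted p = 0.0432, limma). The call was lost under median-ratio and upper-quartile scaling (adjusted p = 0.0957 and 0.0911, limma). It was also lost when no filter on low values was applied (adjusted p = 0.0501, limma).

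Actg2, the visceral smooth muscle actin gene (ENSMUSG00000059430, chr6:83512905-83536265, minus strand), was the least abundant actin in every library. It was measured at 1.98, 2.36, 3.56, 3.50 and 2.85 FPKM in nAAC and at 0.363, 0.394, 0.641, 0.536 and 0.379 FPKM in sham. The groups did not overlap, and all sham values lay below the pseudocount of 1, so the fold change on the log2(FPKM + 1) scale understates the difference. The ratio of the means, 2.85 ± 0.694 to 0.463 ± 0.121 FPKM (SD, n = 5 each), was 6.16, while the log2 FC was 1.38 (SE 0.13). Since Actg2 reached the filter only through nAAC, its test is given from the fit without a filter (adjusted p = 1.82e-04, limma) and from the exact permutation test, which uses no filter (p = 0.0079). With a pseudocount of 0.1 the log2 FC was 2.38.

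The cytoplasmic actin Actb (ENSMUSG00000029580, chr5:142903115-142906754, minus strand), often taken as a reference gene in RNA measurements, was measured at 171.7, 176.3, 169.5, 198.9 and 161.5 FPKM in nAAC. In sham it was measured at 92.2, 99.0, 92.9, 88.1 and 94.6 FPKM. Every nAAC value exceeded every sham value, and sham libraries varied little, with a coefficient of variation of 4.26%. The means of 175.6 ± 14.1 and 93.4 ± 3.97 FPKM (SD, n = 5 each) gave a ratio of 1.88 and a log2 FC of 0.90 (SE 0.11, adjusted p = 7.00e-05, limma; exact permutation p = 0.0079).

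Actg1, the other cytoplasmic actin gene (ENSMUSG00000062825, chr11:120345690-120348542, minus strand), was measured at 141.9, 129.5, 127.7, 156.0 and 130.6 FPKM in nAAC and at 88.9, 85.5, 76.0, 70.0 and 76.6 FPKM in sham. The groups were again separate. The means of 137.2 ± 11.9 and 79.4 ± 7.68 FPKM (SD, n = 5 each) gave a ratio of 1.73 and a log2 FC of 0.78 (SE 0.12, adjusted p = 3.73e-04, limma; exact permutation p = 0.0079). Gm12715, a processed pseudogene that holds 823 of the shared 100-base stretches of Actg1, was listed at 16.6 ± 3.25 FPKM in nAAC and 8.94 ± 1.45 in sham (SD, n = 5 each). This amounted to 8.92 to 13.8% of the Actg1 FPKM in nAAC and 8.79 to 14.7% in sham. The part of Gm12715 in the difference between groups was not tested, but its own log2 FC of 0.82 (SE 0.15, adjusted p = 0.00111, limma) lay within 1 SE of that of Actg1. The other pseudogenes that share stretches with Actg1 were listed at no more than 1.32 FPKM in any library.

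**Figure D2:**
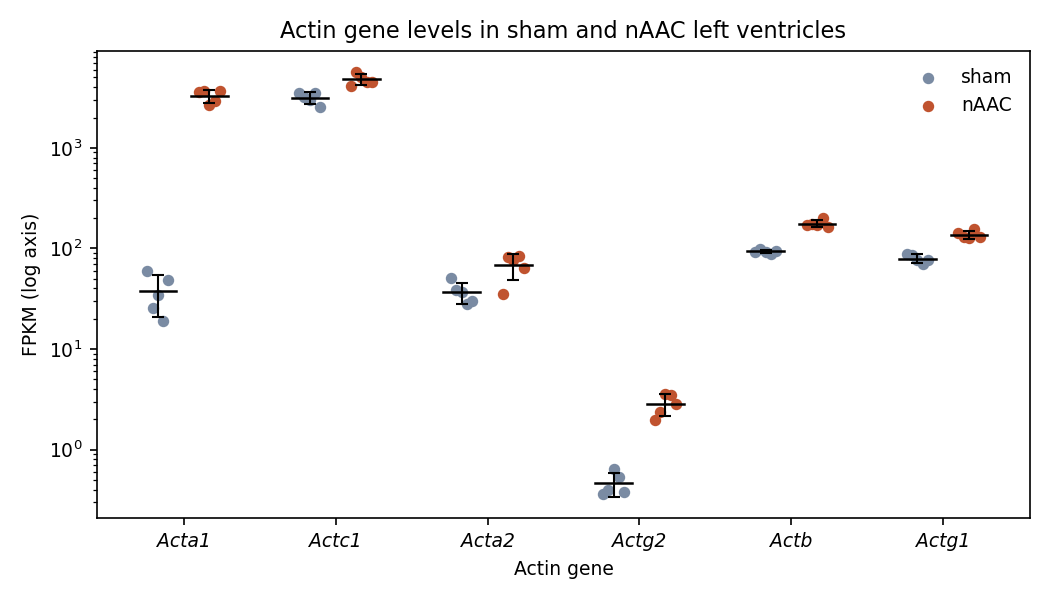
The y axis gives FPKM on a log axis for each actin gene, with 1 point per library (5 sham in grey-blue, 5 nAAC in red), and black bars give the mean ± SD. Acta1 moves from about the level of Acta2 in sham to just below Actc1 in nAAC, while Acta2 shows 1 nAAC library at 35.5 FPKM within the sham range.

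The order of the levels, which FPKM allows because it is a value per length, differed between the groups. In sham LV the order was Actc1, Actb, Actg1, then Acta1 and Acta2, then Actg2. Acta1 (18.9 to 59.7 FPKM) and Acta2 (27.8 to 50.2 FPKM) overlapped there, and so did Actb and Actg1 by a narrow margin. In nAAC LV the order was Actc1, Acta1, Actb, Actg1, Acta2 and Actg2, and no neighbours in it overlapped in FPKM. By mean FPKM Acta1 thus stood in the fourth place among the actins in sham and in the second in nAAC, and the other isoforms kept their order. By coverage, the mean signal per base, Actg1 lay above Actb in sham replicates 1, 2, 3 and 5 and in nAAC replicates 1 and 5. The order of Actb and Actg1 thus depends on the measure.

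Summed over the 6 genes, actin FPKM was 8464 ± 731 in nAAC and 3403 ± 412 in sham (SD, n = 5 each), or 2.17 ± 0.126% and 0.883 ± 0.131% of the FPKM outside the mitochondrial genome. Acta1 made up 44.3, 37.6, 32.7, 36.8 and 43.2% of actin FPKM in nAAC replicates 1 to 5, and 1.58, 0.737, 1.06, 0.507 and 1.77% in sham. The groups lay far apart (means 38.9 ± 4.80% and 1.13 ± 0.537%; two-sided exact permutation p = 0.0079). Actc1 made up 51.3, 58.4, 62.6, 57.6 and 52.6% in nAAC and 92.3, 92.8, 92.6, 94.5 and 91.0% in sham. Its share was lower in all nAAC libraries (56.5 ± 4.60% against 92.6 ± 1.26%, exact permutation p = 0.0079) although its FPKM was higher, since the 6 shares of a library sum to 100%.

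The remaining 4 isoforms were minor in both groups. Actb took 2.09 ± 0.272% of actin FPKM in nAAC and 2.78 ± 0.420% in sham (exact permutation p = 0.024), and Actg1 took 1.63 ± 0.242% and 2.36 ± 0.318% (p = 0.016, the same exact test). Both ranges overlapped between groups. The share of Acta2, 0.809 ± 0.239% against 1.08 ± 0.211%, did not pass the test (exact permutation p = 0.095), and without sham replicate 4 it did (difference -0.351 percentage points, exact permutation p = 0.016). Actg2 alone of these 4 had a higher share in nAAC, 0.0341 ± 0.00984% against 0.0137 ± 0.00386% (SD, n = 5 each), with separate groups (exact permutation p = 0.0079). The 6 shares are not independent, and their p values were not adjusted.

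**Figure D3:**
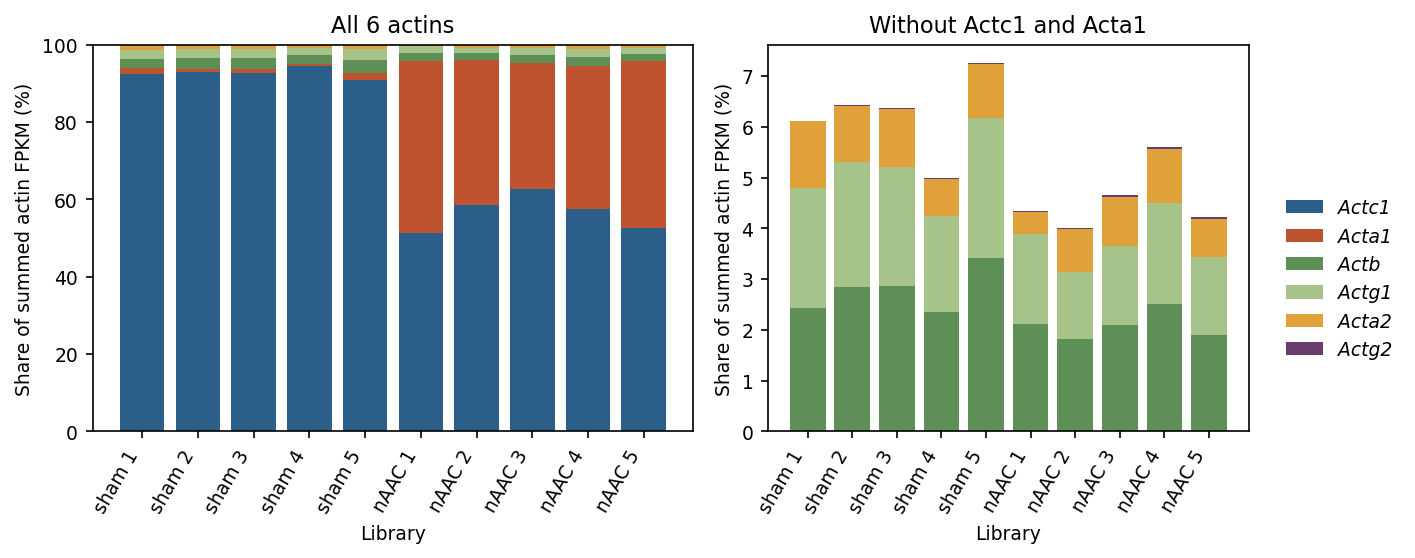
Stacked bars give, for each library, the share of summed actin FPKM in percent, for all 6 actins on the left and for the 4 minor isoforms on an enlarged axis on the right. Acta1 (orange-red) fills 32.7 to 44.3% of the bar in nAAC and 0.507 to 1.77% in sham, and the minor isoforms together fill less of the bar in nAAC 1, 2, 3 and 5 than in any sham library.

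A ratio of 2 genes within a library does not depend on the scaling between libraries. Among the sarcomeric isoforms, Acta1 made up 40.8 ± 4.93% of Acta1 plus Actc1 in nAAC and 1.21 ± 0.580% in sham (SD, n = 5 each). Actc1 exceeded Acta1 by 1.16 to 1.91 times in nAAC libraries and by 51.4 to 186 times in sham libraries. The log2 ratio of Acta1 to Actc1 was -0.21, -0.64, -0.94, -0.65 and -0.29 in nAAC and -5.87, -6.98, -6.44, -7.54 and -5.68 in sham, a difference of 5.96 (exact permutation p = 0.0079). Sham replicate 4 had the lowest ratio, and leaving out any 1 library left the difference between 5.70 and 6.17.

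Among the smooth muscle isoforms, the log2 ratio of Acta2 to Actg2 was 4.17, 5.11, 4.44, 4.60 and 4.48 in nAAC and 7.11, 6.61, 5.84, 5.70 and 6.30 in sham. It was lower in every nAAC library, by 1.75 on average (exact permutation p = 0.0079), which is to say that Actg2 rose by more than Acta2 in proportion. With 1 added to both FPKM values, the difference was -0.53 and did not pass the test (exact permutation p = 0.063), because Actg2 lies near or below 1 FPKM. The cytoplasmic isoforms differed little in their balance. The log2 ratio of Actg1 to Actb averaged -0.36 ± 0.0702 in nAAC and -0.24 ± 0.113 in sham (SD, n = 5 each), and the difference of -0.12 did not pass the test (exact permutation p = 0.071), except without nAAC replicate 1 (-0.14, exact permutation p = 0.048).

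**Figure D4:**
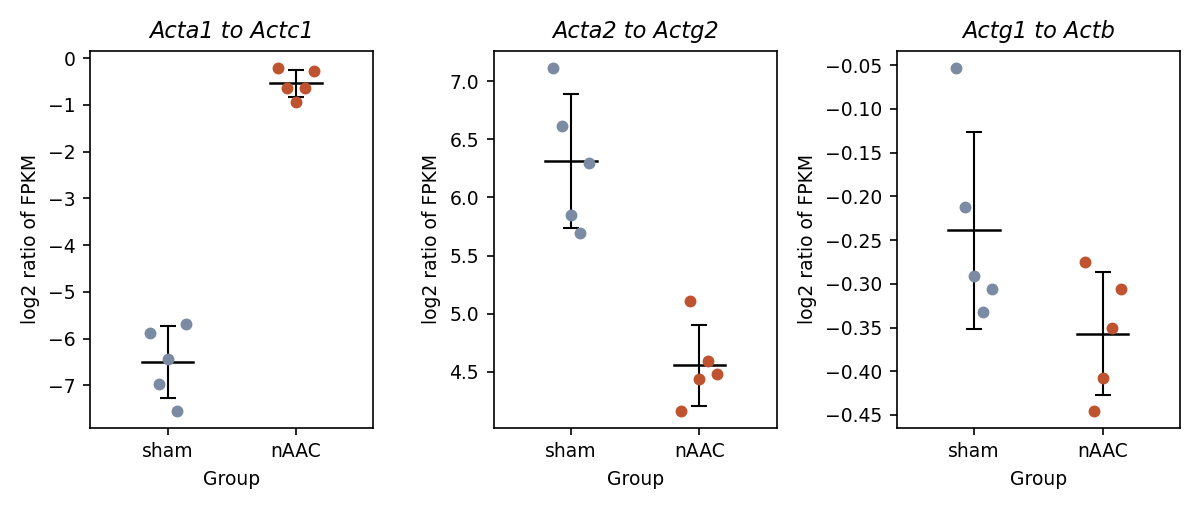
Each panel gives the log2 ratio of FPKM of a pair of actin genes, with 1 point per library and the mean ± SD in black, on a y axis of its own that does not start at 0. The groups are separate for Acta1 to Actc1 (means -6.50 in sham and -0.54 in nAAC) and for Acta2 to Actg2 (6.31 and 4.56), and overlap for Actg1 to Actb.

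The 6 actins did not vary together within the groups. After each gene was centred within its group on the log2 scale, Pearson's r over the 10 libraries was 0.70 for Actb with Actg1, 0.55 for Actc1 with Acta2 and 0.49 for Acta2 with Actg2, but -0.29 for Acta1 with Actc1 and -0.02 for Acta1 with Actb. These values describe libraries that share their depth and composition. Of all tested genes, those most like Actg1 after centring were Col1a1, which encodes a chain of type I collagen (r = 0.97), Gm44220 (0.95) and Rbm5 (0.91). The most alike to Acta1 were Utp4 (0.95), Uhrf1bp1 (0.94) and Gga3 (0.93), and to Acta2 Ky (0.95), Cacna1g (0.90) and Itfg2 (0.89). Those most like Actb were 4931406C07Rik (0.93), Stx17 (0.91) and Pbx3 (0.91), those most like Actc1 were Gm19810 (0.92), Mrpl3 (0.89) and Atp5md (0.88), and those most like Actg2 were Cdc25a, Eps8l1 and Tgtp1 (0.90 each). All were picked as the highest r among all tested genes over only 10 libraries, which by itself favours high values, and no test was made. Some were close to the filter, with mean FPKM of 1.06 (Gm44220), 1.24 (Gm19810) and 1.28 (Cdc25a).

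Over the 10 libraries without centring, which mixes the groups and so mostly ranks genes by a like difference between them, the genes nearest to Acta1 were Meox1 (r = 0.995), Mapk11 (0.994) and Gnao1 (0.994). Actg1 was nearest to Col1a1 and Col1a2 (0.99 each) and then to Sorl1 (0.99), and its rank order of the 10 libraries was the same as that of Col1a1. The genes nearest to Actb were Mfap4, Ssc5d and Arid5a (0.99 each). Those nearest to Actc1 were Mrpl3 (0.97), Lars (0.95) and Gm12092 (0.94). Nearest to Acta2 were Amigo2 (0.95), Tmem181a (0.93) and Glipr2 (0.92), and nearest to Actg2 were Stmn2 (0.99), Fzd2 (0.98) and Cys1 (0.98). Some of these genes were higher in nAAC and close to the filter, with mean FPKM of 1.08 (Mapk11), 1.42 (Sorl1) and 1.65 (Gm12092). Whether they reached the filter only through their nAAC libraries was not tested, and their r should be read with that limit.

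Genes near the actins on the chromosome were read beside them, since the use of strand in the authors' counting is not given in the sources used here. The antisense gene A530058N18Rik, whose interval spans Actc1, was lower in nAAC (3.45 against 6.13 FPKM on average; log2 FC -0.70, SE 0.21, adjusted p = 0.0241, limma), while Actc1 itself was higher. The groups overlapped for A530058N18Rik (1.76 to 4.83 FPKM in nAAC and 4.24 to 8.17 in sham). Galnt2l, which spans Acta1 on the other strand, was listed at 0 in all libraries, and the small RNA genes Gm23419 and Mir6935 within Actg1 were listed at no more than 0.0459 FPKM.
Of the 4 genes within 2000 bases that do not overlap an actin, Stambpl1 beside Acta2 (log2 FC 0.05, SE 0.15, adjusted p = 0.819, limma) and 0610009L18Rik beside Actg1 (0.08, SE 0.21, adjusted p = 0.788, limma) did not pass the test. The other 2 differed between the groups, and all 4 were chosen after their values were seen. Gm29773, on the plus strand and 1522 bases from the 5′ end of Acta1, was measured at 0.571, 0.971, 0.488, 0.632 and 0.946 FPKM in nAAC and at 0.0273, 0.0156, 0, 0.0104 and 0.0265 in sham. All nAAC values lay above all sham values (exact permutation p = 0.0079), at levels too low to enter the limma fit. C130080G10Rik, on the plus strand and 787 bases from the 5′ end of Actc1, was lower in nAAC at 37.3 ± 9.12 against 62.9 ± 7.28 FPKM (SD, n = 5 each; log2 FC -0.76, SE 0.17, adjusted p = 0.00417, limma). Its groups did not overlap. The interval of C130080G10Rik lies within that of A530058N18Rik on the same strand, and whether their differences are separate was not tested.

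Genes of the actin pathway were taken from 5 lists and read beside the median log2 FC of all genes, 0.22. SRF and its cofactors had 8 tested genes, of which 4 rose, against 27.1% of all genes, and the other 4 did not pass the test, with a median log2 FC of 0.42. Abra, which encodes an actin-binding activator of SRF signalling in striated muscle, was measured at 17.1 to 25.0 FPKM in nAAC and 2.23 to 5.41 in sham (log2 FC 2.21, SE 0.17, adjusted p = 1.41e-06, limma). Srf itself was measured at 33.1, 31.4, 44.9, 35.1 and 36.0 FPKM in nAAC and at 20.7, 13.2, 12.8, 20.1 and 22.4 in sham, with separate groups (log2 FC 1.0, SE 0.17, adjusted p = 8.00e-04, limma). Elk3, an SRF partner of the ternary complex factor family, rose as well (log2 FC 0.63, SE 0.14). Of the myocardin family, Mrtfa rose (log2 FC 0.59, SE 0.11), while Mrtfb (0.25, SE 0.15) and Myocd (-0.0091, SE 0.22) did not pass the test. The count of 4 was the same under median-ratio scaling.

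Of 15 genes for cross-linking and adhesion of actin filaments, 12 rose and 5 were DEGs, against 27.1% and 5.01% of all genes, and the median log2 FC was 0.83. Flnc, the filamin of muscle, was at 49.0 ± 6.15 FPKM in nAAC and 9.85 ± 2.80 in sham (SD, n = 5 each; log2 FC 2.23, SE 0.17, adjusted p = 9.53e-07, limma). Actn1, a nonmuscle alpha-actinin, rose by a log2 FC of 1.43 (SE 0.14) and Zyx, a focal adhesion protein, by 1.19 (SE 0.14). With median-ratio scaling 9 of the 15 were higher.

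Of 23 genes for monomer binding and filament turnover, 15 rose, against 27.1% of all genes, and the other 8 did not pass the test, with a median log2 FC of 0.56. They included Capg, which caps filament ends (log2 FC 1.49, SE 0.20), Wdr1, a partner of cofilin in filament disassembly (1.06, SE 0.12), and profilin Pfn1, which binds monomers (0.93, SE 0.20). Under median-ratio scaling 8 of the 23 were called higher and 1 lower. Of 24 tested genes for nucleation, elongation and pointed-end capping, 8 rose and 2 fell, with a median of 0.30, and that share of risers is near the 27.1% of all genes called higher. Arpc1b, a subunit of the Arp2/3 complex, rose by a log2 FC of 0.97 (SE 0.14) and so did Arpc3 of the same complex (0.62, SE 0.17), whereas the tropomodulin Tmod4 fell from 7.17 ± 1.95 to 2.02 ± 0.642 FPKM (SD, n = 5 each; log2 FC -1.43, SE 0.17, adjusted p = 5.21e-05, limma). When single libraries were left out, between 4 and 11 members of this list were higher (4 without nAAC replicate 4, sham replicate 1 or sham replicate 3, 5 without nAAC replicate 2 and 11 without sham replicate 5), and under median-ratio scaling 2 were higher and 3 lower.

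Genes for folding and maturation of actin stood close to the median of all genes. Of 16 tested, 4 rose and 12 did not pass the test, with a median log2 FC of 0.24, and that share of risers is near the 27.1% of all genes. The chaperonin subunits Cct8 (log2 FC 0.56, SE 0.13) and Cct3 (0.52, SE 0.12) and Naa80, the actin amino-terminal acetyltransferase (0.63, SE 0.16), were among the 4. Under median-ratio scaling the median was -0.02 and the 2 genes that limma called were lower in nAAC, while 3 were higher at an unadjusted p below 0.05.

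**Figure D5:**
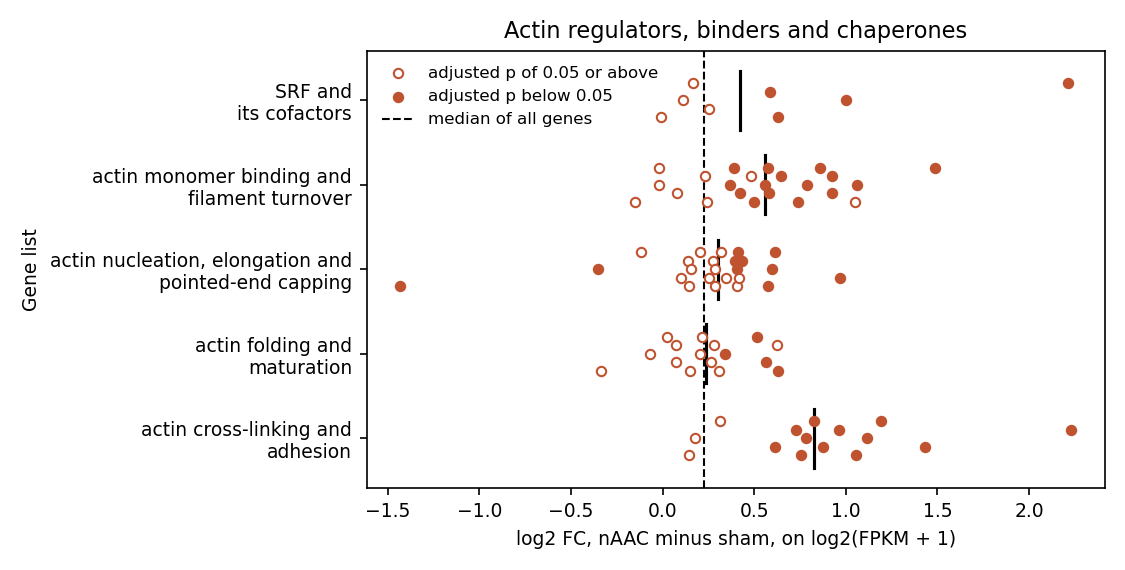
Each circle is a tested gene of 1 of the 5 lists (rows), placed by its log2 FC (nAAC minus sham) on the x axis, filled where the adjusted p was below 0.05. Short black lines are the list medians, from 0.24 for folding to 0.83 for cross-linking, and the dashed line is the median of all genes at 0.22.

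Markers of cell types were read beside the actins of those cells. Of 12 cardiomyocyte markers, the cells in which Actc1 and Acta1 are used, 3 rose, 2 fell and 7 did not pass the test, with a median log2 FC of 0.04, so that the risers were again near 27.1%. The beta-myosin heavy chain Myh7 rose by a log2 FC of 2.75 (SE 0.25) and Mybpc3 by 0.86 (SE 0.17), while phospholamban (Pln) fell (log2 FC -0.86, SE 0.14). Their summed FPKM overlapped between the groups, at 14255 to 22154 in nAAC and 15792 to 30624 in sham.

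Skeletal muscle markers were examined because Acta1 is the main actin of that tissue. Of the 13, only Mybpc2 reached the filter, and it rose from 1.40 ± 0.778 to 22.4 ± 7.63 FPKM (SD, n = 5 each; log2 FC 3.26, SE 0.26, adjusted p = 1.87e-06, limma). Of the others, Myh4 and Tnnc2 were listed at 0 in all 10 libraries, Myh1 and Myh2 reached at most 0.0222 FPKM, Myod1 at most 0.116, Myog at most 0.0221, Actn3 and Atp2a1 at most 0.141 and Pvalb at most 0.721. Mylpf overlapped between the groups (0.434 to 0.747 FPKM in nAAC and 0.0865 to 0.71 in sham). Tnnt3 was higher in nAAC (0.148 to 1.12 against 0 to 0.126 FPKM) and Tnni2 lower (0.0811 to 0.297 against 0.947 to 1.77), both without overlap. The list's summed FPKM was 11.0 to 32.3 in nAAC and 2.50 to 5.14 in sham, and Mybpc2 made up most of it in nAAC.

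Of 12 markers of smooth muscle and mural cells, the cells of Acta2 and Actg2, 8 were called higher, but Cnn1 and Lmod1 reached the filter only through nAAC (sham means 0.881 and 0.660 FPKM). Of the other 10, 6 rose, against 27.1% of all genes, among them Tagln (log2 FC 1.54, SE 0.21), Des, which cardiomyocytes also express (1.35, SE 0.23), and Myh11 (1.25, SE 0.22). The 4 that did not pass the test were Smtn (log2 FC -0.07, SE 0.17), Rgs5 (-0.0024, SE 0.21), Kcnj8 (-0.0026, SE 0.17) and Abcc9 (-0.53, SE 0.22). The summed FPKM of all 12 was 1071 to 1369 in nAAC and 557 to 853 in sham. Des alone accounted for 715 to 1093 FPKM of this in nAAC and 232 to 541 in sham, so the sum mostly follows Des. Of 10 fibroblast markers 7 rose, against the same 27.1% (median 0.72), among them Postn (log2 FC 3.78, SE 0.27), Col1a1 (2.09, SE 0.15) and Col1a2 (2.0, SE 0.19). The 3 that did not pass the test were Pdgfra (log2 FC 0.26, SE 0.17), Ddr2 (0.43, SE 0.18) and Fap (-0.04, SE 0.17). The summed FPKM of all 10 was 545 to 966 in nAAC and 364 to 397 in sham. Dcn alone accounted for 309 to 498 FPKM of this in nAAC and 288 to 304 in sham, so most of the sham sum was Dcn. The part of smooth muscle cells, mural cells and fibroblasts in the levels of Acta2, Actg2, Actb and Actg1 was not tested. Of the other lists, 1 of 7 tested leukocyte markers and 2 of 6 endothelial markers rose, around the 27.1% of all genes, and of 5 tested atrial markers 1 rose and 1 fell.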

How the data were processed

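Libraries were made from total RNA of LV tissue of 5 nAAC and 5 sham mice with a NEBNext Ultra kit, and the groups were taken from the sample titles. For every mouse the authors deposited a gene table holding coverage (mean signal per base), FPKM and TPM, in the layout of StringTie. The labels name the build mm10. The aligner, its settings, the read length and the use of strand are not given in the sources used here. FPKM corrects for length and total but not for RNA composition.

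Rows repeated for a gene (7 to 12 per table) were summed. The members and gene lists were chosen with earlier results of these data known. Genes whose FPKM averaged 1 or more were compared with limma 3.58.1 (R 4.3.3) on log2(FPKM + 1) with a trend and Benjamini-Hochberg adjustment over 11867 genes, after the test was checked on simulated data. Single values, shares and ratios were compared with two-sided exact permutation tests. The limma p values set the difference between groups against the spread between the sampled mice, moderated over genes. The permutation p values rank the difference among all regroupings of the libraries. Named genes were the 6 actins, the 3 called genes of largest change in each list, the 3 genes most correlated with each actin, and genes overlapping an actin. Skeletal, smooth muscle and other markers needed beside an actin and the genes of the myocardin family were added. Other scalings, TPM, coverage, pseudocounts, filters, covariates and left-out libraries were tried. Sequences came from GENCODE M21 and RefSeq (GRCm38.p6). Pseudogene counts used exact stretches of 100 bases. Figures were drawn with matplotlib 3.10.9 and pandas 2.3.3 in Python 3.11.15.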

Additional observations from a re-analysis of the deposited data

How the results depend on the processing

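Over 126 recomputed log2 FC values of the 6 actins, none changed direction and 8 no longer passed the test, 4 each for Actc1 (range 0.32 to 0.83) and Acta2 (0.58 to 1.13). These came from median-ratio and upper-quartile scaling, from testing genes of all levels and from an adjusted p below 0.01, each of which left 4 of 6 actins called. Leaving out single libraries left all 6 called. The genes called higher then numbered from 2392 (without nAAC replicate 4) to 3930 (without sham replicate 4). With TPM or with coverage in place of FPKM, 4 actins were DEGs in place of 2, and 4973 and 5248 genes were called higher (344 and 273 lower). With Xist as a covariate, 1593 genes were called higher, and 1820 higher and 312 lower were called at an adjusted p below 0.01. With upper-quartile scaling 1620 were called higher and 1359 lower. Of the gene lists, the count of members called higher moved most for monomer binding and turnover (15, and 8 with upper-quartile scaling or Xist), nucleation (8, and 14 with TPM or coverage, 3 with Xist or an adjusted p below 0.01, 2 with upper-quartile scaling) and folding (4, and 8 with TPM, 2 with Xist, 1 with upper-quartile scaling). The list alternatives other than median-ratio scaling were chosen after seeing the data. Expressed per FPKM outside the mitochondrial genome, the differences in share of Actc1 (0.406 percentage points), Acta2 (0.00777), Actb (0.0208) and Actg1 (0.0146) turned positive, since these shares need not sum to 100% over the actins. Without single libraries the difference in the share of Acta2 lay between -0.351 and -0.175 and the log2 ratio of Actg1 to Actb differed by -0.141 to -0.0717. The ratio of Acta2 to Actg2 with 1 added differed by -0.53. The labels do not say whether the replicate numbers pair the samples. Deviations of same-numbered libraries from their group means correlated at -0.32 to 0.19. Differently numbered libraries were not compared, so these values cannot decide whether the samples were paired. With the replicate number as a block all 6 actins stayed called, and the differences in log2 ratio of 5.96 (Acta1 to Actc1) and -1.75 (Acta2 to Actg2) had p = 0.0625 in the exact sign-flip permutation test, the smallest that 5 pairs allow. Depth is unknown, which limits what can be said of genes under 1 FPKM, among them Actg2 in sham.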
